A study of Homo sapiens with 6 samples.

Results

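The genes of the translation initiation factors (eIFs) were examined in RKO cells, an established human colon carcinoma line, with and without an intact GSK3B gene. They were taken as every gene symbol that begins with EIF and a digit, which includes the eIF2 kinases and the eIF4E-binding proteins. Of 61 such symbols 5 were left out, 4 antisense or divergent transcripts and 1 pseudogene, so that 56 of the 28278 genes in each table were members. Of these 56 genes 53 passed the filter on low counts and were tested, and the other 3, EIF1AY, EIF3K and EIF4E1B, were listed at 0 in all libraries. EIF3K encodes a subunit of eIF3, a complex that dividing cells use, and a listed 0 is therefore not taken to mean that a gene was silent. Messenger RNA was sequenced in 3 libraries of GSK3B knockout RKO cells and 3 of RKO cells with wild-type GSK3B, with no other allele or agent named for either group. How the GSK3B allele was disrupted, and whether the knockout cells were a clone or a pool, is not in the labels. Nor do they say whether replicates were separate cultures, so p-values measure only the spread between these libraries, which may be technical.

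Initiation begins when eIF2, loaded with GTP and the initiator tRNA, joins the small ribosomal subunit together with eIF1, eIF1A, eIF3 and eIF5. The cap-binding complex eIF4F, made of eIF4E, eIF4G and eIF4A, brings this assembly to the mRNA, which is scanned to a start codon, and eIF5B then joins the large subunit. The guanine nucleotide exchange factor eIF2B recharges eIF2, and stress kinases that phosphorylate eIF2 make it an inhibitor of eIF2B. GSK3 kinases are known to phosphorylate the epsilon subunit of eIF2B, which lowers exchange activity. That control acts on the protein, and the counts here measure RNA alone.

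Total counts were 32379369 to 33558362 in knockout libraries and 32565829 to 33052404 in wild-type libraries. GSK3B had 46.0, 47.5 and 47.1 CPM (CPM being the standard unit of counts relative to library size, here with TMM scaling) in knockout replicates 1 to 3, against 99.0, 97.6 and 91.4 CPM in wild-type replicates 1 to 3. All knockout values lay below all wild-type values, at 48.8% of the wild-type level (95% interval 45.4 to 52.4; log2 fold change -1.04 ± 0.05 SE; adjusted p = 1.88e-12). GSK3B protein was not measured here, and this RNA level alone does not show whether it was lost. The paralog GSK3A averaged 86.4 ± 2.29 CPM in knockout and 84.5 ± 4.57 CPM in wild-type libraries (SD, n = 3 each; log2 fold change 0.03, adjusted p = 0.731). Of 10 colon epithelial markers 5 reached 1 CPM (KRT8, KRT18, EPCAM, VIL1 and CDX2), and CDH1 and LGALS4 were listed at 0. EPCAM was lower in the knockout, at 1.04, 1.06 and 1.11 CPM against 3.62, 4.28 and 2.40 CPM in replicates 1 to 3. KRT18 was higher (74.1 to 76.1 against 69.0 to 70.8 CPM), and the groups overlapped in KRT8, VIL1 and CDX2. Of 6 leukocyte markers CD68 alone reached 1 CPM, PTPRC being listed at 0, and 0 of 4 endothelial markers did. CD68 had 740 to 763 CPM. It shares 85.8% of its exon bases with other genes, among them AC016876.2, which also overlaps EIF4A1, and the source of its reads was not tested. In such bulk libraries, fewer cells of a type and less RNA per cell cannot be told apart. Of 6 fibroblast markers 2 reached 1 CPM, and the list summed to 0.870 to 1.14 CPM in knockout and 2.19 to 5.89 CPM in wild-type libraries. PDGFRB had 0.792, 0.560 and 0.781 CPM in knockout replicates 1 to 3. Its wild-type values were 1.61, 2.14 and 2.01 CPM, the largest of the list in each wild-type library. The highest sum was that of wild-type replicate 3, the one library with COL1A2 (0.691 CPM), COL3A1 (0.540 CPM) and DCN (0.751 CPM) above 0.1 CPM. Whether these marker counts came from fibroblasts, and what part they had in the results below, was not tested.

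Most initiation factor genes differed little between the groups, and those that passed the test were nearly all higher in the knockout. In edgeR's quasi-likelihood test with Benjamini-Hochberg adjustment over all 14409 tested genes, 8 members rose, 1 fell and 44 did not pass at an adjusted p under 0.05. The 8 that rose were EIF1, EIF1AX, EIF3J, EIF4E, EIF4G1, EIF4G2, EIF5 and EIF5A2, and the 1 that fell was EIF4E3. They make up 17.0% of the tested members, where 13.5% of all tested genes were called. By direction, 15.1% of members were higher and 1.89% lower, against 6.36% and 7.18% of all tested genes. The rises were small, from 1.09-fold for EIF4G1 to 1.23-fold for EIF5A2. The fitted log2 fold change was above 0 in 37 and below 0 in 16 of the 53 members (69.8% above, against 50.1% of all tested genes), and its median was 0.05, beside 0.00 over all tested genes. With scaling by library size alone 34 were above 0 and 19 below, and the median was 0.03. The groups did not overlap in 18 members, 14 higher and 4 lower, where 31.3% of all tested genes showed such a separation, 15.4% higher and 15.9% lower. Together the members took 1.15%, 1.14% and 1.14% of all counts in knockout replicates 1 to 3, against 1.13%, 1.12% and 1.09% in wild-type replicates 1 to 3.

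**Figure D1:**
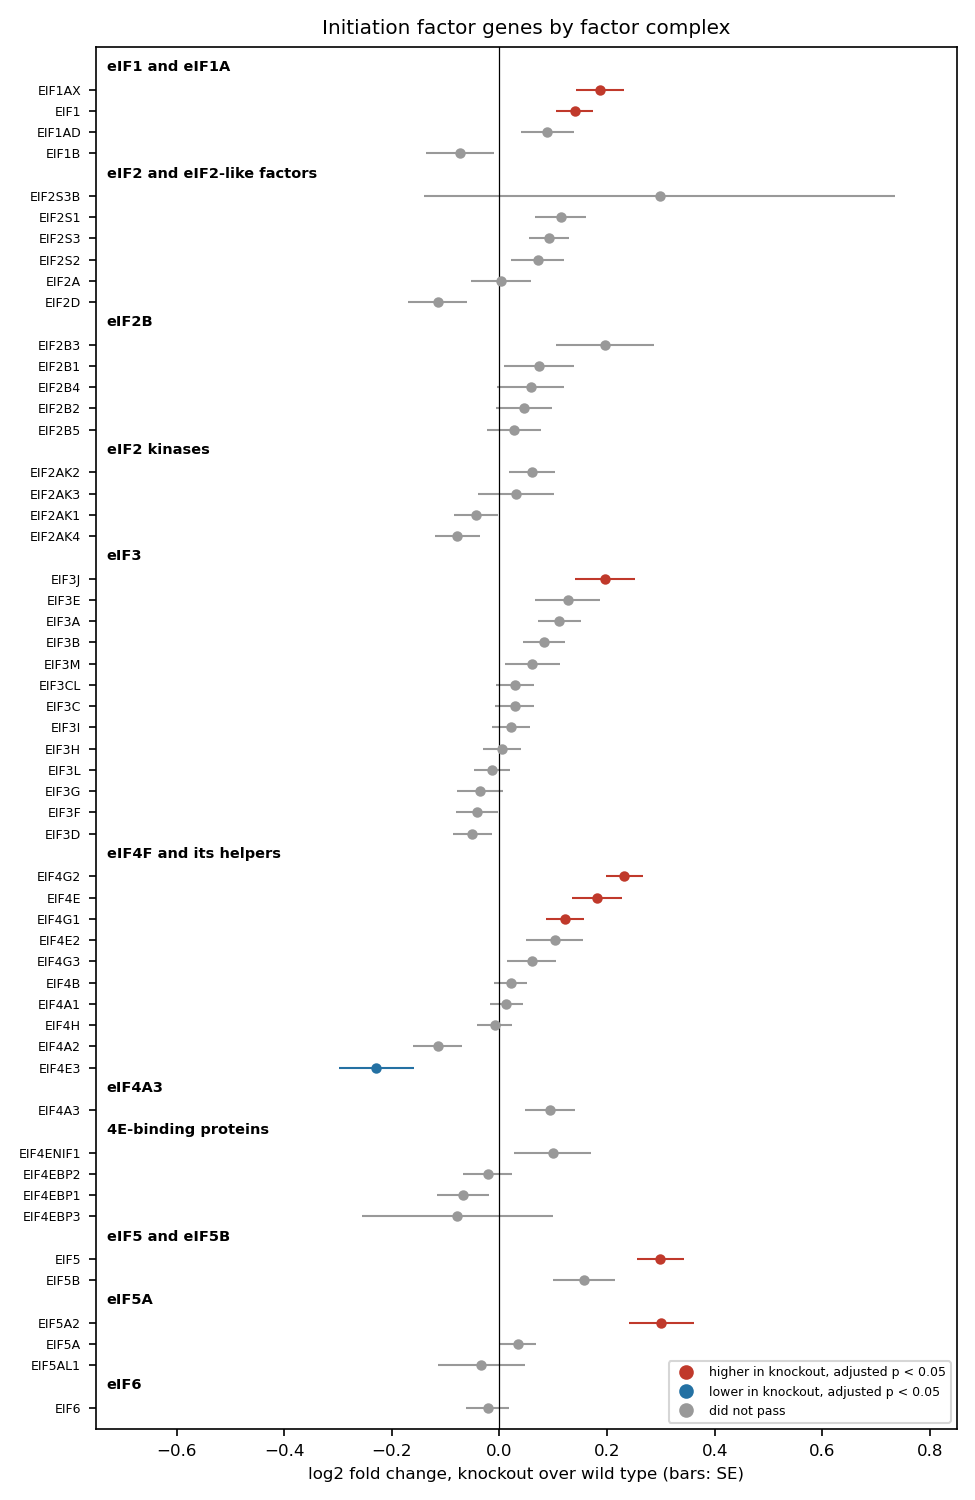
Log2 fold change of the 53 tested initiation factor genes, knockout over wild type (x axis), grouped by factor complex, with bars of 1 SE from the fit to 3 libraries per group. Red points passed the test and were higher, the blue point passed and was lower, and grey points did not pass; the 8 red points lie in 5 different groups.

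Wild-type replicate 3, the library with the highest fibroblast marker sum, was often the lowest. It held the lowest of the 6 values in 23 of the 53 members (43.4%), and in 27.5% of all tested genes. Without it 9 members were higher and 2 lower, where 7.02% of all genes then tested were higher and 7.03% lower. All 8 of the rises above were still called. The members' log2 fold changes were then above 0 in 34 and below 0 in 19, against 37 and 16 in the reported fit. Without wild-type replicate 1, 13 members were higher and 0 lower (8.63% and 8.72% of all genes). Without wild-type replicate 2, 5 were higher and 0 lower (3.13% and 4.22% of all genes). Without knockout replicate 2, 5 were higher and 1 lower (2.47% and 4.03% of all genes). At an unadjusted p under 0.05, edgeR had 14 members higher and 3 lower, where 28% of all tested genes had such a p. DESeq2 and limma-voom each called the same 8 higher and the same 1 lower. By DESeq2 6.61% of all genes were higher and 7.07% lower, and by limma-voom 6.33% and 6.87%.

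The factors that act at start-codon selection held the largest rise in a core factor. EIF5 encodes the protein that triggers GTP hydrolysis by eIF2 and contributes to the choice of the start codon (chromosome 14, 103333544 to 103345025 in hg38). It had 321, 315 and 328 CPM in knockout replicates 1 to 3, against 275, 270 and 239 CPM in wild-type replicates 1 to 3. All 3 knockout values lay above all 3 wild-type values, and the lowest was wild-type replicate 3. The difference was 1.23-fold (95% interval 115.6% to 130.9% of wild type; log2 fold change 0.30 ± 0.04 SE; adjusted p = 4.56e-05). It passed in all 14 alternative fits, with adjusted p-values of 2.87e-12 to 0.00109.

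EIF1, whose product guards against initiation at poor start codons (chromosome 17, 41688885 to 41692668), had 319, 320 and 335 CPM in knockout replicates 1 to 3, against 295, 297 and 292 CPM in wild-type replicates 1 to 3. The wild-type values were close together and all lay below the knockout values (log2 fold change 0.14 ± 0.04 SE; adjusted p = 0.00954). EIF1 did not pass without knockout replicate 3 (adjusted p = 0.0924). EIF1AX, the X-linked gene of eIF1A, which works with eIF1 during scanning (chromosome X, 20124518 to 20141844), had 236, 243 and 224 CPM in knockout replicates 1 to 3. Its wild-type values were 206, 218 and 193 CPM in replicates 1 to 3. The groups did not overlap, but the lowest knockout and highest wild-type values differed by little (log2 fold change 0.19 ± 0.04 SE; adjusted p = 0.00642). EIF1AX did not pass without knockout replicate 2 (adjusted p = 0.0702).

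EIF1B, a close paralog of EIF1, averaged 30.8 ± 0.62 CPM in knockout and 32.4 ± 1.39 CPM in wild-type libraries (SD, n = 3 each; log2 fold change -0.07; adjusted p = 0.489). EIF1AD, which despite its name is known for a role in making the small ribosomal subunit, averaged 65.6 ± 1.42 CPM in knockout and 61.7 ± 1.12 CPM in wild-type libraries. Neither EIF1B nor EIF1AD passed in any of the 14 alternative fits. EIF5B, the GTPase of subunit joining, had 105, 99.7 and 98.7 CPM in knockout replicates 1 to 3, against 102, 86.9 and 83.4 CPM in wild-type replicates 1 to 3. Wild-type replicate 1 lay within the knockout range, and the difference did not pass (log2 fold change 0.16 ± 0.06 SE; adjusted p = 0.0711). Without wild-type replicate 1 it did (log2 fold change 0.24; adjusted p = 6.97e-04), as it did without the low-count filter and with the replicate block. The estimate was 0.10 when wild-type replicate 3 was left out (adjusted p = 0.227).

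**Figure D2:**
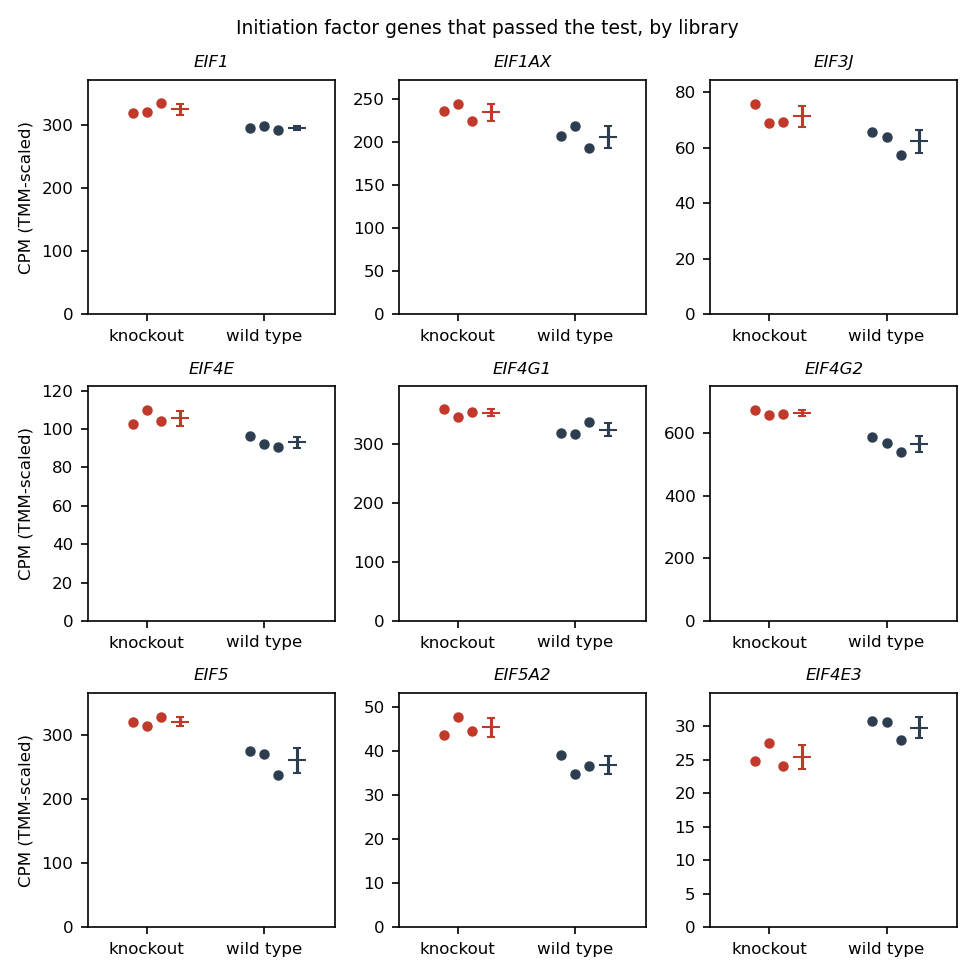
TMM-scaled CPM (y axis, from 0) of the 9 initiation factor genes that passed the test, 1 point per library, knockout left of wild type, with mean and SD beside the points (n = 3 per group). In each panel the groups do not overlap, and the knockout points are the lower ones for EIF4E3 alone.

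The eIF2 complex, which carries the initiator tRNA, showed no member that passed. EIF2S1, the alpha subunit and the target of the stress kinases, averaged 158 ± 3.90 CPM in knockout and 146 ± 10.5 CPM in wild-type libraries (SD, n = 3 each; log2 fold change 0.11; adjusted p = 0.114). The log2 fold changes of EIF2S2 and EIF2S3, the beta and gamma subunits, were 0.07 and 0.09 (adjusted p = 0.369 and 0.100). All 3 subunits passed without wild-type replicate 1 (adjusted p = 0.0383, 0.0368 and 0.0232), and in no other fit without 1 library. Without wild-type replicate 3 their log2 fold changes shrank to 0.06 (EIF2S1), 0.01 (EIF2S2) and 0.06 (EIF2S3), with adjusted p-values of 0.311, 0.943 and 0.158. EIF2A and EIF2D, separate proteins that can deliver tRNA to the ribosome, stood at 0.00 and -0.11 (adjusted p = 0.983 and 0.168). EIF2S3B, a copy of EIF2S3, was under 1 CPM in each library, and its estimate of 0.30 had an SE of 0.44. In this group of 6 genes edgeR, DESeq2 and limma-voom called 0, and 2 were higher and 1 lower at an unadjusted p under 0.05 in edgeR. Such a p was found in 28% of all tested genes, in either direction.

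None of the 5 genes of eIF2B, the complex that GSK3 is known to phosphorylate, passed edgeR, DESeq2, limma-voom or any other of the 14 alternative fits. EIF2B5, the catalytic epsilon subunit and the GSK3 substrate, had 59.5, 59.7 and 61.0 CPM in knockout replicates 1 to 3, against 60.2, 58.2 and 58.4 CPM in wild-type replicates 1 to 3. The groups overlapped, and the knockout stood at 101.9% of wild type with a 95% interval of 94.9% to 109.5% (log2 fold change 0.03 ± 0.05 SE; adjusted p = 0.774). EIF2B3, the gamma subunit, which pairs with epsilon, had 16.0, 13.5 and 15.3 CPM in knockout replicates 1 to 3, against 13.1, 14.1 and 11.95 CPM in wild-type replicates 1 to 3. Its estimate was the highest of the 5 and its groups overlapped (log2 fold change 0.20 ± 0.09 SE; unadjusted p = 0.0431, adjusted p = 0.163). It was the only subunit with an unadjusted p under 0.05 in edgeR.

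The regulatory subunits of eIF2B, which sense phosphorylated eIF2, also overlapped or nearly did. EIF2B1, the alpha subunit, had 35.7, 41.1 and 41.0 CPM in knockout replicates 1 to 3, against 37.9, 38.5 and 35.6 CPM in wild-type replicates 1 to 3. EIF2B2, the beta subunit, had 54.5, 54.6 and 55.9 CPM in knockout replicates 1 to 3, against 53.6, 52.3 and 54.0 CPM in wild-type replicates 1 to 3. EIF2B4, the delta subunit, had 34.6, 35.2 and 34.9 CPM in knockout replicates 1 to 3, against 31.3, 33.8 and 35.5 CPM in wild-type replicates 1 to 3. The groups separated narrowly in EIF2B2 and overlapped in EIF2B1 and EIF2B4. The 95% intervals of these 3 genes lay between 95.1% and 115.4% of wild type. EIF2B2 shares 23.6% of its exon bases with other genes, EIF2B1 15.55%, EIF2B3 10.2%, EIF2B4 3.73% and EIF2B5 0.946%. The 5 genes together had 200.3 to 208.0 CPM in knockout and 195.5 to 196.8 CPM in wild-type libraries. Their log2 fold changes were all above 0 in the reported fit, from 0.03 to 0.20, with a median of 0.06.

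Of the 4 kinases that phosphorylate eIF2, 0 passed edgeR, DESeq2 or limma-voom, and in edgeR 0 of them reached an unadjusted p of 0.05. EIF2AK4 encodes GCN2, the sensor of amino acid shortage, and had 126, 123 and 122 CPM in knockout replicates 1 to 3, against 132, 129 and 131 CPM in wild-type replicates 1 to 3. Its groups did not overlap, with the knockout lower (log2 fold change -0.08 ± 0.04 SE; adjusted p = 0.220). EIF2AK1, which encodes HRI, the kinase of heme shortage, had 141, 139 and 147 CPM in knockout replicates 1 to 3, against 144, 148 and 148 CPM in wild-type replicates 1 to 3. EIF2AK2 encodes PKR, the kinase of double-stranded RNA, and had 175, 170 and 169 CPM in knockout replicates 1 to 3, against 172, 164 and 156 CPM in wild-type replicates 1 to 3. EIF2AK3 encodes PERK, the kinase of endoplasmic reticulum stress, and had 26.2, 26.3 and 27.0 CPM in knockout replicates 1 to 3, against 27.8, 26.3 and 23.7 CPM in wild-type replicates 1 to 3. In these 3 genes the groups overlapped, and the 95% intervals lay between 91.5% and 113.1% of wild type.

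**Figure D3:**
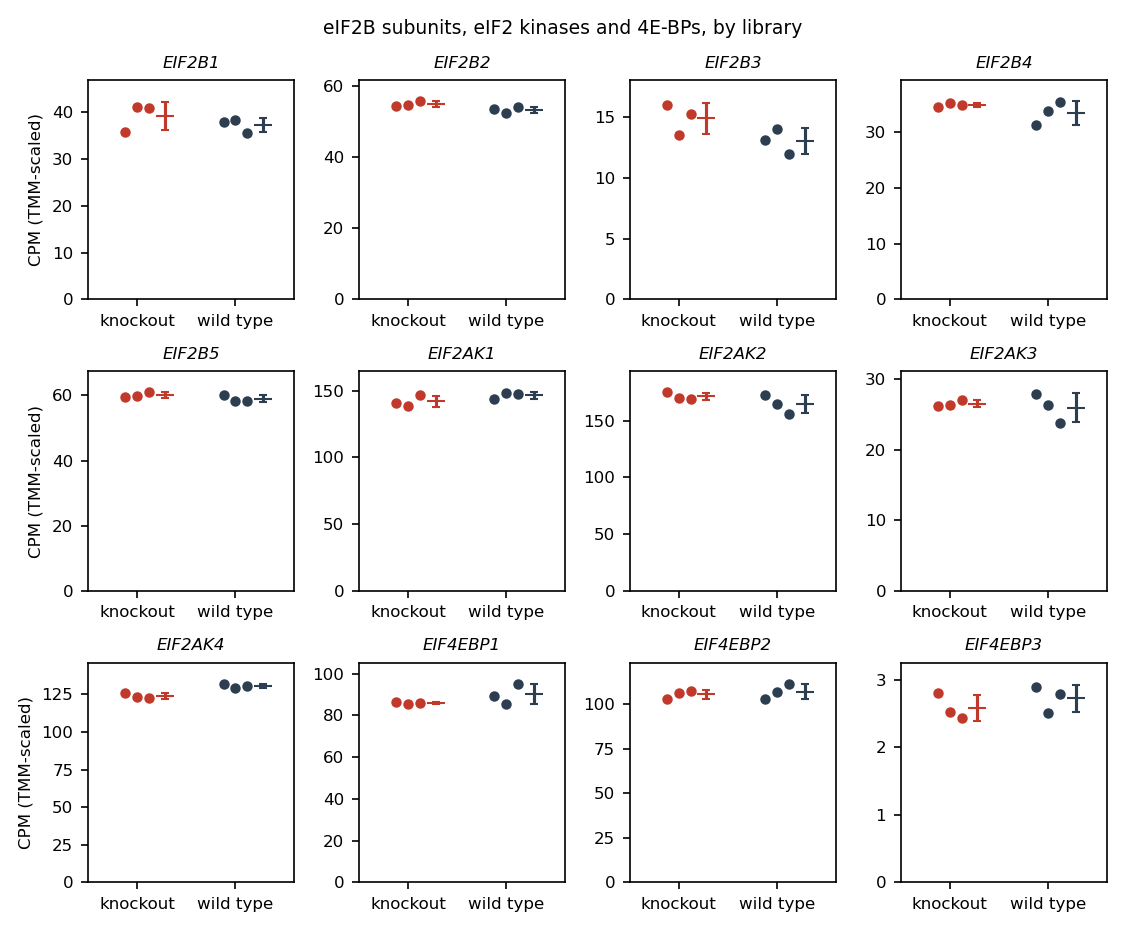
TMM-scaled CPM (y axis, from 0) of the 5 eIF2B subunits, the 4 eIF2 kinases and the 3 eIF4E-binding protein genes, 1 point per library, knockout left of wild type, with mean and SD beside the points (n = 3 per group). The groups overlap except for EIF2B2, where the knockout is narrowly higher, and EIF2AK4, where it is narrowly lower.

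In eIF3, the large scaffold that binds the small subunit, 1 of 13 tested subunit genes rose and 12 did not pass. That is 7.69% higher, beside 6.36% of all tested genes. The gene that rose was EIF3J, a loosely bound subunit that contacts the decoding site (chromosome 15, 44537057 to 44563029). EIF3J had 75.8, 68.8 and 69.3 CPM in knockout replicates 1 to 3, against 65.5, 63.8 and 57.4 CPM in wild-type replicates 1 to 3. The groups did not overlap, and knockout replicate 1 was the highest library (log2 fold change 0.20 ± 0.06 SE; adjusted p = 0.0221). Leaving out knockout replicate 1 or wild-type replicate 2 ended the call (adjusted p = 0.163 and 0.0571). It shares 5.85% of its exon bases with the opposite-strand gene SPG11, and whether the counting used strand is not stated in the labels.

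The other eIF3 genes had log2 fold changes of -0.05 for EIF3D, the subunit that can itself bind caps, to 0.13 for EIF3E. EIF3E varied most among wild-type libraries, with 544, 534 and 522 CPM in knockout replicates 1 to 3, against 539, 490 and 436 CPM in wild-type replicates 1 to 3. EIF3A, the largest subunit, had 488, 473 and 463 CPM in knockout replicates 1 to 3, against 473, 428 and 418 CPM in wild-type replicates 1 to 3. For both genes wild-type replicate 1 lay within the knockout range, and without it both passed (EIF3E, log2 fold change 0.20, adjusted p = 4.57e-04; EIF3A, 0.16, adjusted p = 0.00129). Without wild-type replicate 3 the estimates were 0.05 for EIF3E and 0.08 for EIF3A (adjusted p = 0.317 and 0.165). EIF3B, the scaffold subunit that binds near the small subunit's mRNA channel, stood at 0.08 (adjusted p = 0.159). Without wild-type replicate 3 EIF3B passed (log2 fold change 0.12, adjusted p = 0.00618).

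Counts of the eIF3 genes together were 3609, 3580 and 3541 CPM in knockout replicates 1 to 3, against 3539, 3458 and 3416 CPM in wild-type replicates 1 to 3. Reads of EIF3C and EIF3CL cannot be told apart with confidence, since the genes are near-identical copies on chromosome 16. Their counts differed by less than 1% in each library (ratio 1.01 in all 6). The SD of this ratio was 0.0003 in knockout and 0.0008 in wild-type libraries, so the rows of these genes are not independent members. Reads counted under both symbols enter the sum above, and the sums and counts over all members, more than once. EIF3CL alone averaged 303 CPM in knockout and 297 CPM in wild-type libraries. The median log2 fold change of the 13 genes was 0.03.

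In the cap-binding group, 3 of 10 tested genes rose, 1 fell and 6 did not pass. These are 30% and 10%, beside 6.36% and 7.18% of all tested genes. EIF4G2 encodes DAP5, a relative of eIF4G that lacks the eIF4E-binding part and serves cap-independent initiation (chromosome 11, 10797050 to 10809110). EIF4G2 had 675, 657 and 661 CPM in knockout replicates 1 to 3, against 589, 568 and 540 CPM in wild-type replicates 1 to 3. Every knockout value exceeded every wild-type value by a wide margin relative to the spread, at 1.17-fold (log2 fold change 0.23 ± 0.03 SE; adjusted p = 6.32e-05). It passed in all 14 alternative fits, with adjusted p-values of 7.87e-09 to 0.00182.

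EIF4E, the cap-binding protein (chromosome 4, 98871684 to 98930637), had 103, 110 and 104 CPM in knockout replicates 1 to 3, against 96.2, 92.2 and 90.9 CPM in wild-type replicates 1 to 3. The groups did not overlap (1.13-fold; log2 fold change 0.18 ± 0.05 SE; adjusted p = 0.0103). Leaving out replicate 2 of either group ended the call (adjusted p = 0.113 for knockout and 0.0602 for wild type). EIF4G1, the main scaffold of eIF4F (chromosome 3, 184314495 to 184335358), had 359, 347 and 355 CPM in knockout replicates 1 to 3, against 319, 318 and 339 CPM in wild-type replicates 1 to 3. The groups did not overlap, and the call was the least stable of the rises (log2 fold change 0.12 ± 0.04 SE; adjusted p = 0.0256). It was lost without knockout replicates 1, 2 or 3 (adjusted p = 0.136, 0.0803 and 0.0974) and without wild-type replicates 1 or 2 (0.0547 and 0.137). With scaling by library size alone it also did not pass (adjusted p = 0.0600).

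EIF4E3, a relative of eIF4E that binds caps by another mode (chromosome 3, 71675416 to 71754773), fell. It had 24.8, 27.4 and 24.1 CPM in knockout replicates 1 to 3, against 30.9, 30.6 and 27.98 CPM in wild-type replicates 1 to 3. Wild-type replicate 3 was only slightly above knockout replicate 2, and the groups did not overlap (85.3% of wild type; log2 fold change -0.23 ± 0.07 SE; adjusted p = 0.0317). The call ended without knockout replicates 1 or 3 (adjusted p = 0.126 and 0.152) and without wild-type replicates 1 or 2 (0.0572 and 0.126). It shares 9.48% of its exon bases with other genes. EIF4E2, which encodes 4EHP, a cap-binding protein of translational repression, averaged 55.8 ± 2.45 CPM in knockout and 52.0 ± 0.50 CPM in wild-type libraries (SD, n = 3 each; log2 fold change 0.10; adjusted p = 0.213). The ratio of EIF4E to EIF4E3 counts was 4.14, 4.01 and 4.32 in knockout replicates 1 to 3, against 3.12, 3.01 and 3.25 in wild-type replicates 1 to 3. This ratio was chosen after the values were seen and has no test.

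EIF4A1 and EIF4A2 encode the RNA helicase of eIF4F. EIF4A1 averaged 949.9 ± 9.16 CPM in knockout and 941.4 ± 10.1 CPM in wild-type libraries (SD, n = 3 each), at 100.9% of wild type with a 95% interval of 96.6% to 105.4%. EIF4A2 had 209, 230 and 224 CPM in knockout replicates 1 to 3, against 249.9, 246 and 222 CPM in wild-type replicates 1 to 3. Wild-type replicate 3 lay within the knockout range of EIF4A2 (log2 fold change -0.11 ± 0.05 SE; adjusted p = 0.0977). Without wild-type replicate 3 EIF4A2 passed as lower (log2 fold change -0.17; adjusted p = 0.00125), and it also did after the correction for GC content described below (-0.18; adjusted p = 1.03e-04). Per kilobase of the longest principal transcript, the mean level of EIF4A1 was 541 CPM in knockout and 536 CPM in wild-type libraries, and that of EIF4A2 was 115 CPM in knockout and 125 CPM in wild-type libraries. EIF4A1 shares 48.6% of its annotated exon bases with other genes, among them a readthrough transcript with SENP3, and EIF4A2 shares 17.9%, in part with small nucleolar RNAs.

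The helpers EIF4B and EIF4H, which stimulate the helicase, stood at 0.02 and -0.01 on the log2 scale, and EIF4G3, another eIF4G scaffold, at 0.06. EIF4A3, a helicase of the exon junction complex with no place in eIF4F, averaged 88.9 ± 3.39 CPM in knockout and 83.3 ± 0.32 CPM in wild-type libraries (SD, n = 3 each; log2 fold change 0.09; adjusted p = 0.186).

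The eIF4E-binding proteins, which block eIF4F assembly until mTORC1 phosphorylates them, held 0 called genes of 4 in edgeR, DESeq2 and limma-voom, and in edgeR 0 of them reached an unadjusted p of 0.05. EIF4EBP1 had 86.3, 85.5 and 85.9 CPM in knockout replicates 1 to 3, against 89.5, 85.5 and 95.03 CPM in wild-type replicates 1 to 3. EIF4EBP2 had 103, 106 and 108 CPM in knockout replicates 1 to 3, against 103, 107 and 112 CPM in wild-type replicates 1 to 3. EIF4EBP3 had 2.80, 2.52 and 2.43 CPM in knockout replicates 1 to 3, against 2.89, 2.51 and 2.79 CPM in wild-type replicates 1 to 3. The groups overlapped in all 3 genes, with log2 fold changes of -0.07 ± 0.05, -0.02 ± 0.05 and -0.08 ± 0.18 (SE) and adjusted p-values of 0.383, 0.805 and 0.823. EIF4EBP3 shares 73.4% of its exon bases with a readthrough transcript from ANKHD1. Summed over these 3 genes, counts relative to those of EIF4E were 1.87, 1.76 and 1.88 in knockout replicates 1 to 3, against 2.03, 2.12 and 2.30 in wild-type replicates 1 to 3, a ratio that was not tested. Its denominator is EIF4E, which was called higher, so the ratio adds nothing to that call. The counts were not scaled for transcript length, so the ratio does not give relative numbers of molecules. EIF4ENIF1, which encodes the eIF4E transporter, stood at 0.10 ± 0.07 (SE; adjusted p = 0.397).

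In the eIF5A group, whose hypusine-bearing products help the ribosome through difficult peptide bonds, 1 of 3 genes rose (6.36% of all tested genes did). EIF5A2 (chromosome 3, 170888415 to 170908693) had 43.6, 47.6 and 44.6 CPM in knockout replicates 1 to 3, against 39.0, 34.8 and 36.5 CPM in wild-type replicates 1 to 3. Its groups were clearly apart (1.23-fold, 95% interval 112.9% to 134.4% of wild type; log2 fold change 0.30 ± 0.06 SE; adjusted p = 0.00169). EIF5A2 passed in all 14 alternative fits, with adjusted p-values of 7.56e-05 to 0.0277. The main gene EIF5A averaged 864.7 ± 7.30 CPM in knockout and 844.5 ± 38.6 CPM in wild-type libraries (SD, n = 3 each; log2 fold change 0.03 ± 0.03 SE; adjusted p = 0.561). Per kilobase, EIF5A stood at 572 CPM in knockout and 559 CPM in wild-type libraries, and EIF5A2 at 8.10 CPM in knockout and 6.57 CPM in wild-type libraries. EIF5AL1, a retrocopy of EIF5A whose reads may be shared with it, stood at -0.03. EIF6, which keeps ribosomal subunits apart, averaged 223 ± 6.85 CPM in knockout and 227 ± 8.19 CPM in wild-type libraries (log2 fold change -0.02; adjusted p = 0.767).

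EIF5, EIF5A2 and EIF4G2 passed in the reported fit and in all 14 alternatives, and the other 6 called genes lost the call in 1 to 6 of them. Raw counts of the 9 genes ran from 802 to 22154 per library.

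**Figure D4:**
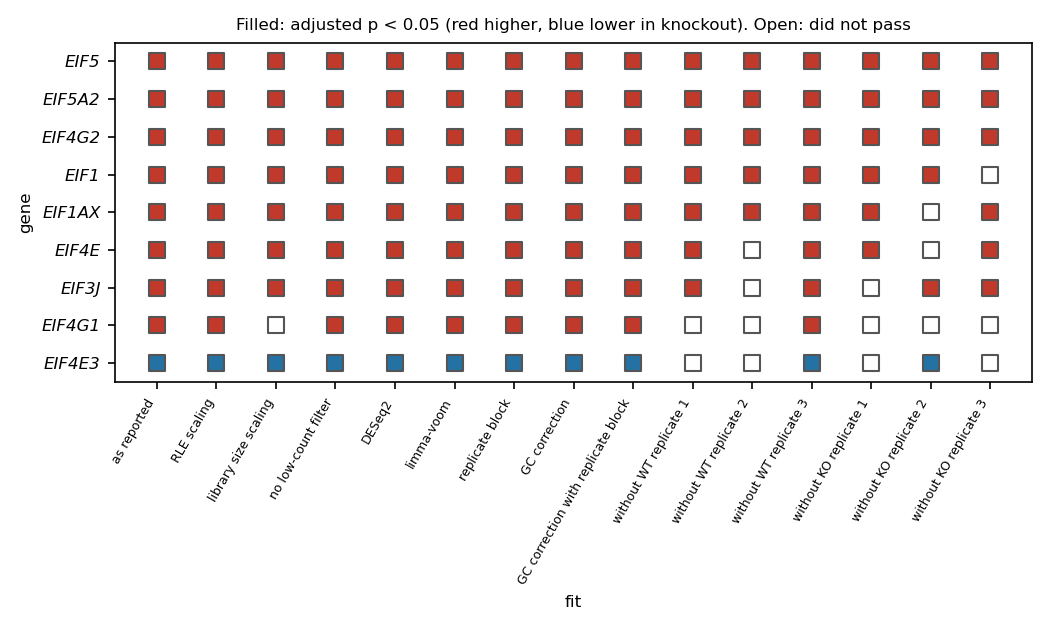
Calls of the 9 genes (rows) in the reported fit and 14 alternatives (columns). Filled squares passed at an adjusted p under 0.05, red for higher and blue for lower in the knockout, and open squares did not pass; the rows of EIF5, EIF5A2 and EIF4G2 are filled throughout.

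The promoters of the 3 genes that passed throughout, of EIF4E and of EIF4E3, the gene that fell, are shown next. Each is the 100 bases before the most upstream start that RefSeq (GRCh38.p14) lists for the gene, on the gene's strand. RefSeq lists 3 starts for EIF4E3, 2 each for EIF5 and EIF4G2 and 1 each for EIF5A2 and EIF4E, and which start was used in these cells was not measured. The GENCODE gene ranges above reach further upstream than the RefSeq starts shown of EIF5, EIF5A2, EIF4G2 and EIF4E. Capitals mark CACGTG, the E-box that MYC and its partners bind, and GGGCGG, the GC box of the SP family, read on either strand. The windows are chr14:103334137-103334236 on the plus strand for EIF5, and, on the minus strand, chr3:170908638-170908737 for EIF5A2, chr11:10808927-10809026 for EIF4G2, chr4:98929134-98929233 for EIF4E and chr3:71754774-71754873 for EIF4E3.
EIF5: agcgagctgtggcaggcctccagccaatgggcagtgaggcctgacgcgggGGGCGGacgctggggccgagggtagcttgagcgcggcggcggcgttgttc
EIF5A2: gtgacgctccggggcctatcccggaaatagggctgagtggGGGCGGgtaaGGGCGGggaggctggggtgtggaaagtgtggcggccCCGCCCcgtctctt
EIF4G2: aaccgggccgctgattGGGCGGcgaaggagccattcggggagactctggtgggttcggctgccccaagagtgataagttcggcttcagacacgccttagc
EIF4E: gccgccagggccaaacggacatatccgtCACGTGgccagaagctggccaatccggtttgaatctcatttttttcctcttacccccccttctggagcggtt
EIF4E3: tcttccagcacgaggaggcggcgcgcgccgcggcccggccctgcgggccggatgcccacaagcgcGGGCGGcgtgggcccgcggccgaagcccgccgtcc
The windows of EIF5, EIF4G2 and EIF4E3 each held 1 GC box, that of EIF5A2 held 3, and that of EIF4E held an E-box. The gene that fell thus shared the GC box with genes that rose. Over the 8 genes that rose, 6 windows held a GC box and 2 an E-box. Among the 47 members with a RefSeq promoter 53.2% had a GC box and 12.8% an E-box, against 31.2% and 3.42% of the 27305 genes in the table. Those 27305 genes were not limited to genes tested here, while most members were tested. The shares are therefore not matched for expression. These are matches of letters, and binding was not measured.

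Fold changes in these libraries were related to the GC content of the transcripts. Over the 53 members Pearson's r between GC content and log2 fold change was -0.31 (Spearman's rho -0.32), and over 13815 tested genes with a GC value r was -0.23 (rho -0.33). These are descriptions across genes, which share libraries and are not independent replicates. The 8 genes that rose had a median GC content of 39.7%, against 46.2% for the 44 that did not pass and 48.7% for all tested genes with a value. Of the 8 rises 6 lay under 42%, and the other two, EIF1 at 46.4% and EIF4G1 at 57.4%, lay above the median of the genes that did not pass. EIF4E3, at 37.2%, fell although its GC content was low.

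After a correction for GC content in each library, all 8 rises and the fall of EIF4E3 still passed. The log2 fold changes were then 0.26 for EIF5, 0.20 for EIF5A2, 0.18 for EIF4G2, 0.15 for EIF1, 0.10 for EIF1AX, 0.12 for EIF4E, 0.13 for EIF3J and 0.19 for EIF4G1. Another 5 members were called higher, namely EIF2S3, EIF3A, EIF3B, EIF3CL and EIF5A, and EIF4A2 was called lower. EIF3CL passed and EIF3C did not, although their counts were nearly equal, since the annotation gives them different GC contents. In that fit 24.5% of members were higher. Of all genes in that fit 20.8% were called, 12.5% higher and 8.3% lower, and r over the members was 0.13.

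**Figure D5:**
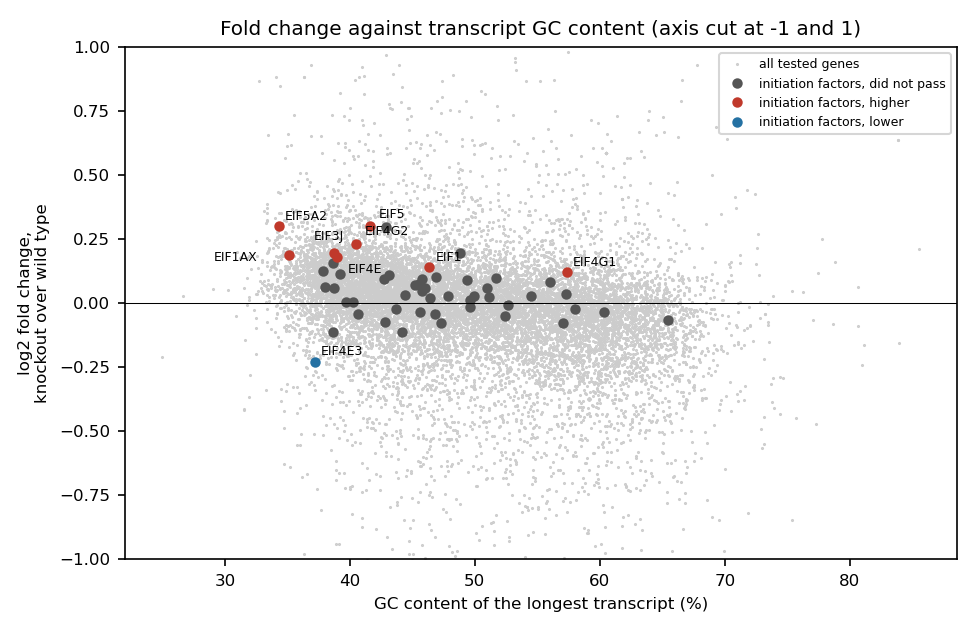
Log2 fold change, knockout over wild type (y axis), against the GC content of the longest transcript in percent (x axis). Shown are the tested genes with a GC value (light grey, 13815 before the cut of the y axis) and the 53 initiation factor genes (dark grey, red for higher, blue for lower). The y axis ends at -1 and 1, which leaves out 148 genes, none of them an initiation factor; most red points lie at the low-GC side.

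Other genes of translation and its control moved in both directions. Of 57 such genes 52 were tested, and 7 rose, 6 fell and 39 did not pass. These are 13.5% higher and 11.5% lower, beside 6.36% and 7.18% of all tested genes. The near balance did not hold after the GC correction, where 19 were higher and 7 lower (36.5% higher, beside 12.5% of all genes in that fit). Among the factors of scanning, joining and recycling 3 of 7 rose and 4 did not pass. Wild-type replicate 3 held the lowest value in all 7. The log2 fold changes were all above 0 in the reported fit, but without wild-type replicate 3 those of BZW2 and MCTS1 were -0.0033 and -0.02, and after the GC correction that of BZW2 was -0.04. DDX3X, a helicase that helps unwind structured leaders, had 437, 451 and 457 CPM in knockout replicates 1 to 3, against 403, 403 and 355 CPM in wild-type replicates 1 to 3. Its groups did not overlap (log2 fold change 0.21 ± 0.04 SE; adjusted p = 0.00116), and it passed in all 14 alternative fits. ABCE1, the ATPase of ribosome recycling, rose by 0.16, and BZW1, a mimic of eIF5 that competes with it, rose by 0.16 (adjusted p = 0.0133 and 0.0158). ABCE1 did not pass without knockout replicate 2 (adjusted p = 0.139), nor BZW1 without knockout replicates 1, 2 or 3 (adjusted p = 0.0656, 0.0676 and 0.0610). BZW1 was at 0.10 without wild-type replicate 3, and after the GC correction ABCE1 was at 0.09 and BZW1 at 0.10, all still past the test.

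Among 11 regulators of eIF4F and poly(A)-binding proteins 2 fell, 0 rose and 9 did not pass, where 7.18% of all tested genes fell. PAIP2B, an inhibitor of the poly(A)-binding protein, had 8.43, 8.30 and 8.50 CPM in knockout replicates 1 to 3, against 11.97, 12.04 and 10.99 CPM in wild-type replicates 1 to 3 (log2 fold change -0.47 ± 0.10 SE; adjusted p = 0.00184). It passed in all 14 alternative fits. PDCD4, an inhibitor of the eIF4A helicase, had 52.7, 52.2 and 47.9 CPM in knockout replicates 1 to 3, against 63.1, 63.4 and 55.7 CPM in wild-type replicates 1 to 3 (log2 fold change -0.25 ± 0.06 SE; adjusted p = 0.00572). The groups did not overlap for either gene. The call of PDCD4 was lost when knockout replicate 3 or wild-type replicate 2 was left out (adjusted p = 0.0544 and 0.0570). PDCD4 shares 29.5% of its exon bases with other genes.

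Of 6 tested genes that respond to eIF2 phosphorylation 3 fell and 0 rose, where 7.18% of all tested genes fell and 6.36% rose. All 6 log2 fold changes were below 0 in the reported fit, and after the GC correction TRIB3, a pseudokinase gene, was at 0.03 and ATF4 at -0.0087. ATF3, a stress-induced transcription factor gene, had 4.48, 4.41 and 4.51 CPM in knockout replicates 1 to 3, against 7.63, 6.66 and 7.36 CPM in wild-type replicates 1 to 3. Its groups were far apart (log2 fold change -0.69 ± 0.12 SE; adjusted p = 4.44e-04). CHAC1, a glutathione-degrading enzyme, and ASNS, the asparagine synthetase, stood at -0.67 and -0.17 (adjusted p = 0.0157 and 0.0351). CHAC1 lost its call without knockout replicate 1 (adjusted p = 0.0642) and without wild-type replicates 2 or 3 (0.0536 and 0.0529). ASNS lost it without knockout replicates 1 or 2 (adjusted p = 0.209 and 0.104) and without wild-type replicate 2 (0.140). ASNS shares 44.6% of its exon bases with another gene. ATF4 itself, whose own translation eIF2 phosphorylation favours, averaged 290.4 ± 8.85 CPM in knockout and 304.0 ± 5.50 CPM in wild-type libraries (adjusted p = 0.235).

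Of 9 mTORC1 and S6 kinase genes TSC1, an inhibitor of mTORC1, rose by 0.13 (adjusted p = 0.0496) and 8 did not pass. In the reported fit 6.36% of all tested genes rose and 7.18% fell. Among the fits without 1 library TSC1 passed without wild-type replicate 3 alone (adjusted p = 0.0767 to 0.179 in the others). It also did not pass with library size scaling, without the low-count filter or with the replicate block (adjusted p = 0.0948, 0.0653 and 0.0504). After the GC correction 5 of the 9 were higher, TSC1 and also RPTOR, MLST8, RHEB and AKT1S1 (55.6%, beside 12.5% of all genes in that fit). Of 8 tested genes listed under elongation and termination, ETF1, the release factor eRF1, rose by 0.18, EEF1E1 by 0.26 and GSPT2 by 0.21. EEF2, the translocase, fell by 0.10 on the log2 scale. Despite its symbol EEF1E1 does not encode an elongation factor. ETF1 passed in all 14 alternative fits. EEF1E1 did not pass without knockout replicates 1 or 2 (adjusted p = 0.0547 and 0.0627), and GSPT2 passed without wild-type replicate 1 alone among the fits without 1 library (adjusted p = 0.0634 to 0.115 in the others). EEF2 did not pass after the GC correction (log2 fold change -0.02; adjusted p = 0.450) or in DESeq2 (0.0667). Among the fits without 1 library EEF2 passed without wild-type replicate 1 alone (adjusted p = 0.0582 to 0.155 in the others). After the GC correction 5 of these 8 genes were higher and 0 lower (62.5% higher, beside 12.5% of all genes in that fit).

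In the other 3 lists edgeR, DESeq2 and limma-voom called 0 genes. They held 7 regulators of eIF2 phosphatase and kinases (4 higher at an unadjusted p under 0.05 in edgeR), the enzymes of eIF5A hypusination (1 lower) and the mitochondrial initiation factors (0). Over all tested genes 28% had such a p, in either direction. PPP1R15A, a regulatory subunit of the eIF2 phosphatase, and GCN1, an activator of GCN2, stood at 0.04 and 0.11. DHPS and DOHH, which make hypusine, stood at -0.16 and 0.14, and MTIF2 and MTIF3 at 0.08 and 0.14. After the GC correction 3 of the 7 regulators were higher and 1 lower, among them PPP1R15A at 0.12 (adjusted p = 0.00221) and GCN1 at 0.17 (adjusted p = 3.43e-05), and DOHH was higher at 0.27 (adjusted p = 0.0123). Of all genes in that fit 12.5% were higher and 8.3% lower.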

How the data were processed

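Whole-number counts per gene symbol, 1 table per library, were deposited by the authors and are not normalized. The submitters' processing notes name the build hg38 and, with no role or order, TopHat, limma and edgeR. How reads were assigned to genes is not given in the sources used here. Per the labels' protocols, polyadenylated RNA was sequenced as 150 bp read pairs.

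The analysis used edgeR 4.0.16 under R 4.3.3. Genes kept by filterByExpr (minimum count 10, minimum total 15) were scaled by TMM and fitted with a robust quasi-likelihood model of group alone. P-values were adjusted over 14409 genes by the Benjamini-Hochberg method at 0.05. Each standard error was derived from the F statistic and the fold change. DESeq2 1.42.0, limma-voom (limma 3.58.1) and other settings were alternatives. For the GC correction each library's counts were offset by a fitted spline on transcript GC content (5 degrees of freedom). Gene models are GENCODE 29 (26218 of 28278 symbols matched). The fits were also run on simulated data, with changes larger than those of the called members and with no GC trend. That run therefore does not show how the fits perform on changes as small as those reported or on a GC trend.

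Members and lists were chosen with earlier results of these data known. Described by library are the members called, the eIF2B subunits, the eIF2 kinases and the eIF4E-binding proteins. Outside that rule EIF5B, EIF3A, EIF3E and EIF4A2 are also given by library. They passed in some alternative fits alone and were picked with their values known. Of each other list up to 4 called genes with the largest change are named, or the 2 with the highest mean. Replicates differed beyond sampling noise (chi-square over degrees of freedom, 3.17 to 9.71), so each library counted as 1.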

Additional observations from a re-analysis of the deposited data

How the results depend on the processing

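All 9 called members kept their direction in all 14 alternatives. Over the 6 fits without 1 library, called members numbered 5 to 13 (5 to 13 higher, 0 to 2 lower), the members' median log2 fold change ran from 0.0259 to 0.0615, called genes over the whole table from 950 to 2531 (361 to 1259 higher, 589 to 1272 lower), and called genes of the other translation lists from 6 to 17. With the GC correction 15 members passed (13 higher, 2 lower), 1727 genes over the whole table were higher, and 26 genes of the other lists passed (19 higher, 7 lower). With that correction and the replicate block together 15 members passed (3 lower), with 1723 genes higher and 24 of the other lists. Without the low-count filter 2 members were lower. Scaling by library size alone gave a members' median of 0.0270. With the replicate number as a block 11 members were higher and 1 lower, and 1080 and 1113 genes over the whole table. The numbers were not read as pairs, since deviations of same-numbered libraries correlated at 0.0709, -0.0041 and 0.0306, and not every library correlated best with its own number. Where the cause of such a shift is not plain from the smaller number of samples, the cause was not tested. With 3 libraries per group, an exact permutation test of 1 gene cannot give a p below 0.1.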
